A study of Mus musculus with 15 samples.

Results

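Mouse embryonic stem cells treated with an inhibitor of Aurora kinase A on top of PD032 were compared with cells treated with PD032 alone. The members were all count-table columns of those conditions, 3 libraries of PD032+ Aurka inh (called the combination here) and 3 of PD032, which are 6 of the 15 libraries in the series. Every group was made from wild-type E14 cells, a single established line, which had been kept on gelatin in medium with Lif (4 ng/ml), CHIR99021 (at 3 µM) and PD0325901 (at 0.4 µM). The cells were then placed at a density of 2000 per µl in Matrigel with reduced growth factors and covered with N2B27 medium with the additions that name each group, and poly(A) RNA was sequenced with a strand-marking kit. The other groups, each of 3 libraries, received Aurka inh alone, 2iLif, or FGF2 with Activin. The labels do not expand PD032, name no Aurora compound and give neither inhibitor doses nor treatment times. No group analysed here received N2B27 alone, so what the Aurora inhibitor changed could be measured only in the presence of PD032. The labels do not say that replicates were separate cultures, so a p-value reflects no more than the spread among these libraries, which may be technical.

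PD0325901, the compound named for the maintenance medium, blocks MEK, the kinase that activates ERK. FGF signalling through ERK moves mouse embryonic stem cells out of the naive state of the preimplantation embryo, through a formative state, toward neural and mesendodermal fates. In the naive state beta-catenin, the effector of canonical Wnt signalling, relieves repression by Tcf factors, and it switches on feedback genes such as Axin2. Aurora kinase A is a serine and threonine kinase of the centrosome and spindle, activated by Tpx2 and Bora, and it is best known for its part in mitosis. Cultures of stem cells in Matrigel polarise around a lumen as they leave the naive state, and apical proteins such as podocalyxin line that lumen.

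Total counts ran from 19304585 to 24202544 per library in the combination and from 18421904 to 22683616 in PD032. Counts were high enough to test 14871 of the 49585 genes. Replicate 2 stood apart in each inhibitor group: the chi-squared per degree of freedom between libraries of a group was 9.81 to 19.2 for pairs that held replicate 2 and 2.59 to 6.74 for the pairs of replicates 1 and 3. Markers of the labelled cell type were present, with the summed level of 7 embryonic stem cell markers at 2690 to 2910 CPM in the combination and 2390 to 2470 CPM in PD032. The summed levels of markers of other cells were far lower in every library, at most 55.2 CPM for trophoblast, 17.5 for neuroectoderm, 14.5 for fibroblasts, 11.1 for mesoderm and 3.31 for primitive endoderm. Most of the trophoblast sum came from Tfap2c, which is also a factor of germline and naive cells. In bulk RNA, fewer cells of a type and less RNA per cell cannot be told apart. Values below are CPM (counts scaled to the TMM-adjusted total of each library), so levels are compared between groups and not between genes.

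The combination differed from PD032 at 36.6% of the genes tested (edgeR quasi-likelihood test, Benjamini-Hochberg adjusted p under 0.05). Of the 14871 genes 2412 were higher in the combination, 16.2%, and 3031 were lower, 20.4%. Large changes were more often downward: 1430 were at least 2-fold lower and 515 at least 4-fold lower, against 537 and 175 higher by as much, so 3.46% of all genes were at least 4-fold lower and 1.18% at least 4-fold higher. The median log2 fold change of all genes tested was 0.017. All libraries of the combination lay above all of PD032 at 24.2% of genes and below them at 25.6%, so 49.8% did not overlap. Counts of list members and statements that groups did not overlap are to be read beside these shares. With the same libraries in part, 27.2% of genes differed between the combination and Aurka inh alone and 37.9% between Aurka inh alone and PD032. Same-numbered libraries of the groups varied together, most clearly those of replicate 2. With replicate number as a block 4292 genes were higher (28.9%) and 4277 lower (28.8%), among them 99.9% of the genes called without the block. Without replicate 2 of all 3 inhibitor groups, an alternative chosen after seeing the data, 3016 were higher and 3746 lower.

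**Figure D1:**
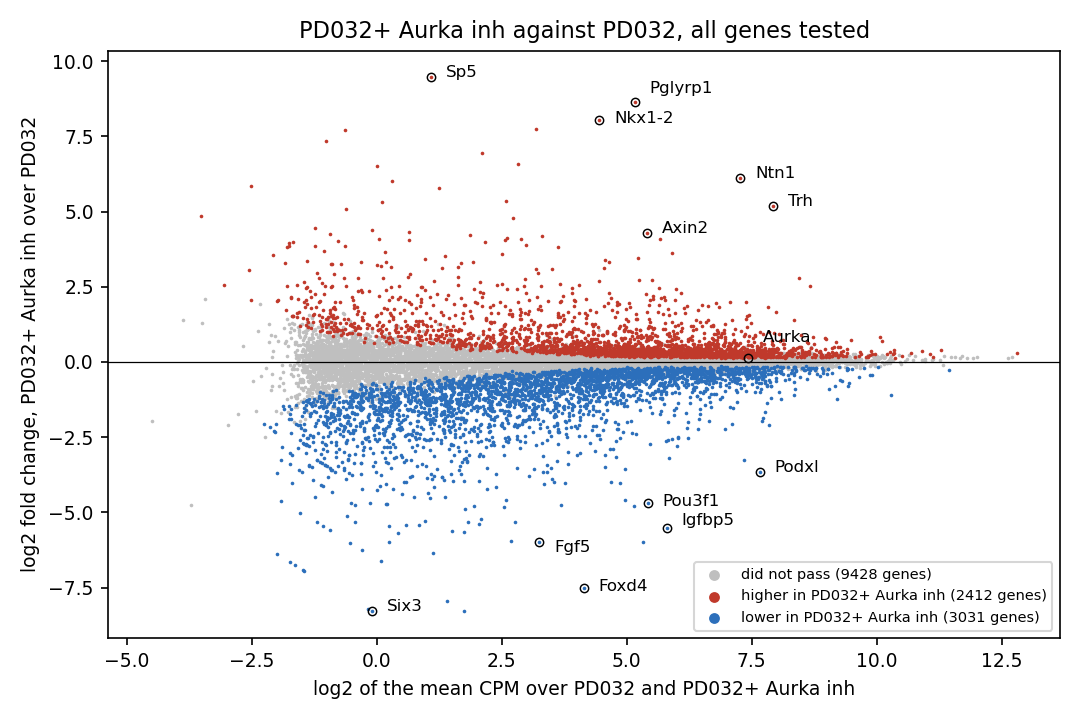
Log2 fold change of PD032+ Aurka inh over PD032 against the log2 of the mean CPM, 1 point per gene tested, red for the 2412 higher genes, blue for the 3031 lower genes and grey for genes that did not pass. Circled genes are named in the text, and the blue points reach large fold changes in greater number than the red ones.

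Several of the genes with the largest rise among those at 10 CPM or more were nearly silent in PD032. Pglyrp1, which encodes a peptidoglycan recognition protein, had 67.9, 83.5 and 62 CPM in the combination and 0.276, 0.0533 and 0.174 CPM in PD032, a log2 fold change of 8.63 (standard error 0.39, edgeR adjusted p = 1.99e-07). Nkx1-2, a homeobox gene of the caudal embryo, had 41.5, 52.2 and 36.3 CPM in the combination and 0.138, 0.213 and 0.131 CPM in PD032, a log2 fold change of 8.05 (standard error 0.24, edgeR adjusted p = 1.41e-08). Every library of the combination lay above 36 CPM for Nkx1-2 and every PD032 library below 0.3. Mobp, which encodes a myelin protein, Nt5e, an ectonucleotidase that makes adenosine, and Sh2d4b, an adaptor with an SH2 domain, met the same description, with less than 0.5 CPM in each PD032 library and over 10 in each library of the combination. Their mean levels were 18.2, 14 and 11.8 CPM in the combination, with log2 fold changes of 7.75, 6.57 and 5.34. Ntn1, which encodes the guidance and survival factor netrin 1, had 321, 304 and 289 CPM in the combination and 4.42, 4.1 and 4.53 CPM in PD032, a log2 fold change of 6.13 (standard error 0.12, edgeR adjusted p = 1.36e-09). Trh, the precursor of thyrotropin-releasing hormone, had 505, 414 and 493 CPM in the combination and 13.9, 10.7 and 14.4 CPM in PD032, a log2 fold change of 5.17 (standard error 0.12, edgeR adjusted p = 2.42e-09). The 3 libraries of each group lay close together for both genes and the groups were far apart. Rerg, a small GTPase of the Ras family, and Calb2, the calcium-binding protein calretinin, rose from 0.465 ± 0.119 to 12.7 ± 1.44 and from 1.02 ± 0.254 to 18.8 ± 3.32 CPM.

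Among the genes that fell furthest, Foxd4, a forkhead factor of the early neural plate, had 0.139, 0.317 and 0.125 CPM in the combination and 35, 27.9 and 42.1 CPM in PD032, a log2 fold change of -7.51 (standard error 0.31, edgeR adjusted p = 1.17e-07). Fgf5, a growth factor of the postimplantation epiblast, had 0.325, 0.211 and 0.332 CPM in the combination and 19.09, 16.4 and 20.9 CPM in PD032, a log2 fold change of -5.97 (standard error 0.44, edgeR adjusted p = 3.72e-06). Both were under 0.5 CPM in every library of the combination and above 10 in every library of PD032, and they were the only genes tested to meet that description. Igfbp5, a secreted binding protein of insulin-like growth factors, had 2.37, 3.01 and 1.91 CPM in the combination and 117, 109 and 102 CPM in PD032, a log2 fold change of -5.51 (standard error 0.15, edgeR adjusted p = 5.82e-09). Trp53i11, named as a p53-inducible gene, fell from 78.7 ± 17.5 to 1.19 ± 0.624 CPM (SD, n = 3 in each group, as in all such pairs of means), the kinesin gene Kif1a from 11.3 ± 4.86 to 0.395 ± 0.114 CPM, and Greb1l, a gene needed for kidney development, from 68.4 ± 26.1 to 2.45 ± 0.676 CPM. Replicate 2 of PD032 was the lowest of its group for all 3 of these genes. Genes of this ranking were taken only from those whose groups did not overlap, so their separation was set by the choice. Fignl2, a fidgetin-like ATPase, Pla2r1, a phospholipase receptor, the protocadherin Pcdh1 and the POU factor Pou3f1 had log2 fold changes of -5.95, -5.32, -4.76 and -4.69.

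On mm10 with GENCODE M21 coordinates, Ntn1 (ENSMUSG00000020902) spans chr11:68209364-68400823 on the minus strand and Nkx1-2 (ENSMUSG00000048528) chr7:132594878-132599637, also on the minus strand. Foxd4 (ENSMUSG00000051490) lies at chr19:24899236-24901197 on the minus strand and Cyp26a1 (ENSMUSG00000024987) at chr19:37697798-37701536 on the plus strand. Dll1 (ENSMUSG00000014773) spans chr17:15367354-15376872 on the minus strand and Hmgcs1 (ENSMUSG00000093930) chr13:119690379-119708260 on the plus strand. All are protein-coding genes and their values are counts over whole genes. The strand setting of the counting is not given in the sources used here, so reads of an overlapping antisense gene cannot be told apart from a gene's own.

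Of the feedback genes of canonical Wnt signalling 5 rose and 2 fell. Axin2, which encodes a scaffold of the complex that degrades beta-catenin, had 80.6, 83.3 and 77.8 CPM in the combination and 4.69, 4.21 and 3.48 CPM in PD032, a log2 fold change of 4.29 (standard error 0.099, edgeR adjusted p = 2.42e-09). Sp5, a zinc finger factor and direct target of Tcf and beta-catenin, had 4.5, 3.43 and 4.78 CPM in the combination and 0 counts in all 3 PD032 libraries, at least 90.8-fold higher when the group's 0 is replaced by 3 counts. For both genes all libraries of the combination lay far above all of PD032. Aurka inh alone gave higher levels still, 96.8 CPM for Axin2 and 13.2 for Sp5 (edgeR adjusted p = 0.0274 and 0.000148 for the combination against Aurka inh, a comparison that shares the combination's libraries). Tnfrsf19, a receptor of the TNF family, rose from 29.2 ± 2.32 to 86.3 ± 7.43 CPM and Notum, a secreted enzyme that inactivates Wnt proteins, from 19.9 ± 2.2 to 52.9 ± 2.15 CPM. Nkd2, an intracellular antagonist of Wnt signalling, fell, at 0.511, 0.792 and 0.54 CPM in the combination and 2.07, 2.02 and 2.26 CPM in PD032. Its relative Nkd1 had a log2 fold change of -1.25 (edgeR adjusted p = 0.0122, and 0.0515 without replicate 3 of the combination). In all, 10 of 14 listed feedback genes had counts high enough to be tested, so 5 of 10 were higher, against 16.2% of all genes, and 2 lower, against 20.4%, with a median log2 fold change of 0.98.

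The promoter of Sp5 is printed because it belongs to the Wnt feedback gene with the largest change and holds the core letters bound by Tcf and Lef factors. The window runs from 250 bases before to 50 after the RefSeq start, chr2:70474673-70474972 on the plus strand of GRCm38.p6, and capitals mark ATCAAAG, read here on the reverse strand, 104 bases before the start.
Sp5 promoter: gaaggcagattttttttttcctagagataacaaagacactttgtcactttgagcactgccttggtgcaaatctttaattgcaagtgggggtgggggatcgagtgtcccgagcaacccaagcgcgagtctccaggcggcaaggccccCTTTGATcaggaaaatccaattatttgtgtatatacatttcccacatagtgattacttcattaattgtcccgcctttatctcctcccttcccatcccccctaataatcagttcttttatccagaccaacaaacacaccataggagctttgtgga
These letters, searched on both strands, occur in 3.73% of 32851 RefSeq promoter windows of that length. Among the 8 Wnt feedback genes with a window they occur in those of Sp5 and Tnfrsf19. A match describes the sequence and is not a measured binding site.

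Wnt ligands and receptors changed in both directions. Wnt5b had 10.8, 11.6 and 12.1 CPM in the combination and 0.736, 0.852 and 0.392 CPM in PD032, a log2 fold change of 4.13 (standard error 0.18, edgeR adjusted p = 1.86e-07). Wnt8a had 5.11, 5.33 and 6.98 CPM in the combination and 0.598, 0.479 and 0.696 CPM in PD032, a log2 fold change of 3.27 (standard error 0.19, edgeR adjusted p = 7.43e-07). Wnt5a, a ligand known mainly for signalling without beta-catenin, went the other way, with 0.604, 0.264 and 0.498 CPM in the combination and 3.36, 3.3 and 3.31 CPM in PD032, a log2 fold change of -2.83 (standard error 0.31, edgeR adjusted p = 6.1e-05). The groups did not overlap for these 3 ligands, as for 49.8% of all genes tested. Porcn, the enzyme that attaches the lipid Wnt proteins need for secretion, rose from 1.88 ± 0.385 to 16.2 ± 1.22 CPM, while Wls, which carries the lipid-modified ligand to the cell surface, fell from 5.35 ± 1.05 to 2.15 ± 0.341 CPM. Ror2, a receptor for Wnt5a, rose from 2.1 ± 0.484 to 16.6 ± 1.46 CPM. Of the Frizzled receptor genes Fzd10 rose from 8.52 ± 0.731 to 41.5 ± 3.98 CPM, and Fzd1, Fzd2, Fzd3, Fzd6, Fzd7 and Fzd8 fell, with log2 fold changes of -1.46, -1.21, -1.31, -0.83, -0.58 and -0.96. The call of Fzd3 was lost without any 1 library of the combination or replicate 1 or 3 of PD032 (adjusted p = 0.0508 to 0.091). With no filter on low counts it was lost too (edgeR adjusted p = 0.0673). The list had 6 higher and 10 lower of 22 tested, against 16.2% and 20.4% of all genes, with a median of -0.22. Lef1, a Tcf/Lef factor, fell from 53.8 ± 2.39 to 13.9 ± 0.407 CPM and Tcf7l2 from 17.3 ± 1.89 to 8.33 ± 0.366 CPM, whereas Tcf7 rose from 73.6 ± 5.8 to 102 ± 6.67 CPM and Tcf7l1, the main repressor of this family in stem cells, did not pass at 196 against 209 CPM (adjusted p = 0.226, and 0.0288 with the replicate block). The beta-catenin gene Ctnnb1 itself fell, from 741 ± 50.5 to 613 ± 20.1 CPM.

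**Figure D2:**
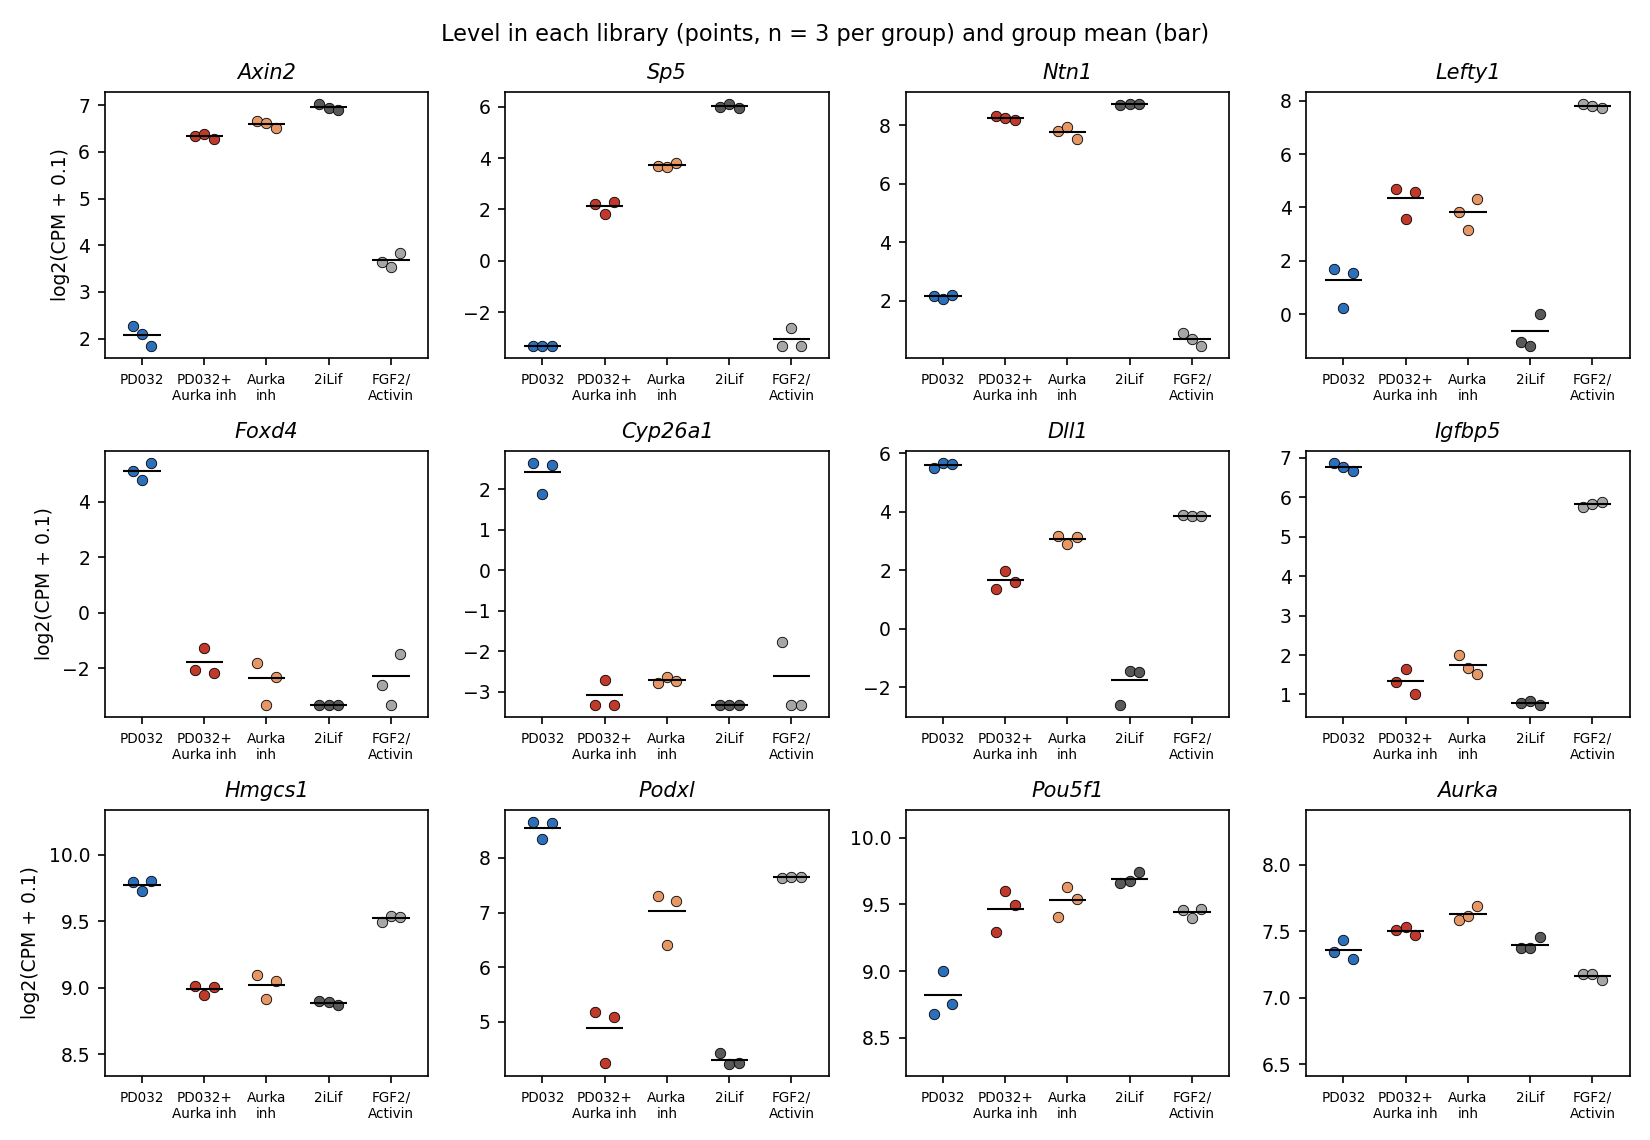
Level of 12 genes in each library as log2(CPM + 0.1), so a point at 0 CPM sits at the bottom of its panel, with the mean of each group as a bar and n = 3 libraries in each of the 5 groups. Axin2, Sp5 and Ntn1 are high and Foxd4, Cyp26a1 and Igfbp5 low in both groups that received the Aurora inhibitor, while Aurka spans less than 1 log2 unit over all groups.

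Naive pluripotency genes were higher in the combination in 13 of 17 cases, 1 was lower and 3 did not pass, with a median log2 fold change of 1.40. Of all genes 16.2% were higher and 20.4% lower. Tbx3, a T-box factor of the naive network, had 88.3, 113 and 86.7 CPM in the combination and 4.42, 7.88 and 4.66 CPM in PD032, a log2 fold change of 4.10 (standard error 0.31, edgeR adjusted p = 3.89e-06). Tfcp2l1, another factor of that network, rose from 66.6 ± 5.3 to 266 ± 26.2 CPM, Nr5a2, a nuclear receptor that can drive Pou5f1, from 51.4 ± 4.76 to 180.0 ± 5.91 CPM, and Tcl1, a cofactor of the kinase Akt, from 12.1 ± 2.87 to 45.6 ± 5.5 CPM. The groups did not overlap for any of these 4 genes, as for 49.8% of all genes tested. Gbx2 was the member that fell, with 0.743, 0.264 and 0.706 CPM in the combination and 1.61, 2.08 and 2.05 CPM in PD032. Fgf4, the ligand that drives ERK in these cells, did not pass, with 162, 182 and 149 CPM in the combination and 166, 189.6 and 153 CPM in PD032 (adjusted p = 0.791). Against the 2iLif libraries, which were used for levels only, the members differed. Klf4 and Tfcp2l1 had 48.6 and 266 CPM in the combination and means of 337 and 1302 CPM in 2iLif, whereas Nr5a2, Klf2 and Sox15 had 180.0, 243 and 10.5 CPM in the combination and 170.0, 261 and 10.4 CPM in 2iLif. For Klf4 and Tfcp2l1 Aurka inh alone had 15.6 and 73.8 CPM, below the combination for both (edgeR adjusted p = 1.11e-05 and 2.91e-05).

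Genes of the core network shared by naive and later pluripotent cells split. Of 14 members 5 were higher and 8 lower, against 16.2% and 20.4% of all genes. Pou5f1, which encodes Oct4, had 629, 776 and 722 CPM in the combination and 409, 512 and 432 CPM in PD032, a log2 fold change of 0.65 (standard error 0.1, edgeR adjusted p = 0.000587), and Sox2 had 465, 494 and 469 CPM in the combination and 289, 322 and 291 CPM in PD032, a log2 fold change of 0.66 (standard error 0.13, edgeR adjusted p = 0.00285). Both were higher in every library of the combination. Sall1, a zinc finger factor, fell from 355 ± 30.4 to 177 ± 15.4 CPM and Lin28a, an RNA-binding protein that blocks let-7 maturation, from 730.0 ± 57 to 415 ± 12.4 CPM. Formative and primed genes were lower in 15 of 17 cases, against 20.4% of all genes, and higher in none, against 16.2%. Their median log2 fold change was -1.23. Pou3f1, which encodes the POU factor Oct6, had 3.67, 2.32 and 3.49 CPM in the combination and 82.3, 77 and 88.2 CPM in PD032, a log2 fold change of -4.69 (standard error 0.2, edgeR adjusted p = 1.17e-07). Sall2 fell from 59.7 ± 1.37 to 2.46 ± 0.57 CPM and Sox3, a SOX factor of the epiblast and neural plate, from 43.6 ± 1.12 to 3.85 ± 0.377 CPM. Aurka inh alone lay between the groups for these 3 genes, with 34.1, 14.8 and 9.8 CPM. Zic2 and Foxd3 did not pass (adjusted p = 0.0726 and 0.43), and Zic2 passed with the replicate block (adjusted p = 6.24e-07).

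Among regulators of DNA methylation, Tet3, a dioxygenase that oxidises methylcytosine, fell from 35.9 ± 5.13 to 6.63 ± 0.331 CPM and Dnmt3l, the cofactor of the de novo methyltransferases, from 191 ± 37 to 101 ± 12.3 CPM. Tet2, a relative of Tet3, rose, at a log2 fold change of 0.808 (edgeR adjusted p = 0.00108). The methyltransferase gene Dnmt3a fell, at -1.23 (edgeR adjusted p = 3.81e-05), and so did Dnmt3b, at -1.16 to -1.03 over the alternative fits. Zfp57, which protects imprints, rose from 310.0 ± 14.2 to 477 ± 5.72 CPM. The maintenance genes Dnmt1 and Uhrf1 did not pass, at log2 fold changes of 0.026 and 0.073, although Uhrf1 had an adjusted p of 0.0393 with the replicate block. Phf19, a Polycomb accessory protein that binds methylated histone tails, had 10.5, 9.76 and 9.85 CPM in the combination and 49.7, 55.4 and 47 CPM in PD032, a log2 fold change of -2.33 (standard error 0.11, edgeR adjusted p = 1.99e-07), and no library of the combination reached a PD032 library. The Polycomb core genes Eed and Suz12 rose from 132 ± 6.18 to 188 ± 12.5 and from 346 ± 23.7 to 475 ± 19.6 CPM, while the catalytic Ezh2 did not pass (log2 fold change 0.026, adjusted p = 0.807).

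Genes of the anterior and neural ectoderm were lower in 9 of 11 tested cases, against 20.4% of all genes, and higher in none, against 16.2%. Their median log2 fold change was -1.43. The other 9 of the 20 listed genes had too few counts to be tested. Six3, a homeobox gene of the forebrain and eye, had 0 counts in the combination and 2.3, 1.28 and 2 CPM in PD032, at least 40.7-fold lower when that 0 is replaced by 3 counts over the group. Hesx1, a homeobox repressor of the anterior neural plate, had 1.67, 1.64 and 1.45 CPM in the combination and 25.4, 22.9 and 28.3 CPM in PD032, a log2 fold change of -4.01 (standard error 0.16, edgeR adjusted p = 9.03e-08). Irx3, an Iroquois factor of the neural plate, had 0.186, 0.105 and 0.208 CPM in the combination and 6.67, 5.81 and 8.31 CPM in PD032, a log2 fold change of -5.30 (standard error 0.33, edgeR adjusted p = 1.23e-06). No library of the combination came near a PD032 library in either gene. Sox1, an early marker of neural fate, fell from 2.25 ± 0.132 to 0.309 ± 0.0276 CPM and Pax6, a factor of the eye and neural tube, from 11.5 ± 3.84 to 4.24 ± 1.8 CPM. These levels were low even in PD032: the summed level of 4 neuroectoderm markers was 10.4 to 17.5 CPM there and 2.69 to 5.86 CPM in the combination. With no filter on low counts the call of Pax6 was lost (edgeR adjusted p = 0.0553). PD032 was also the group with the highest mean of Foxd4, 35 CPM, against 0.0956 in Aurka inh, 0.106 in FGF2/Activin and 0 in 2iLif.

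Retinoic acid, made from vitamin A, patterns the early nervous system, and Cyp26a1 encodes the enzyme that breaks it down. Cyp26a1 had 0, 0.0528 and 0 CPM in the combination and 6.16, 3.62 and 6.01 CPM in PD032, which are 1 and 340 counts, a ratio of 346 (95% interval 61.6 to 13700, counting error only; edgeR adjusted p = 1.63e-06). Stra6, the membrane receptor that takes up retinol, had 0.0929, 0.0528 and 0.0831 CPM in the combination and 4.37, 2.18 and 4 CPM in PD032, a log2 fold change of -5.41 (standard error 0.56, edgeR adjusted p = 3.9e-05). Crabp2, which carries retinoic acid to its nuclear receptors, had 15.7, 19.6 and 17.1 CPM in the combination and 93.3, 112 and 101 CPM in PD032, a log2 fold change of -2.55 (standard error 0.11, edgeR adjusted p = 1.17e-07). For these 3 genes all libraries of the combination lay below all of PD032, and Aurka inh alone was also low, at 0.0532, 0.389 and 28.6 CPM. Over the list 3 genes were higher and 7 lower of 12 tested, against 16.2% and 20.4% of all genes, with a median of -0.60. Aldh1a2, the enzyme that makes retinoic acid, did not pass (log2 fold change -0.11, adjusted p = 0.778).

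The Cyp26a1 promoter is printed because this gene had the largest change of its list and its window holds the letters of a retinoic acid response element. The window is chr19:37697558-37697857 on the plus strand of GRCm38.p6, from RefSeq, and capitals mark a direct repeat, AGTTCA followed by any 5 bases and AGTTCA again, read on the reverse strand and starting 32 bases before the start.
Cyp26a1 promoter: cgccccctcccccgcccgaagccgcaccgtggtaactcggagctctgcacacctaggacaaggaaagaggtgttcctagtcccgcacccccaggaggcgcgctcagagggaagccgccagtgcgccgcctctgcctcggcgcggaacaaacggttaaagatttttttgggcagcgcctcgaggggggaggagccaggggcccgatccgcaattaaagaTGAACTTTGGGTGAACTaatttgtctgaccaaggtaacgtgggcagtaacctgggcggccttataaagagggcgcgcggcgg
The repeat, searched on both strands, occurs in 8 of 32851 promoter windows, 0.0244%. Of the 12 listed retinoic acid genes with a window, Cyp26a1 is the 1 that holds it. Only these exact letters were searched, so related elements with other half-site letters were not counted. The share and the count hold for that string alone. Gene and string were chosen together, so the match in Cyp26a1 was set by that choice and is no result about the list.

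Notch ligands of the Delta family were lower and Jag1 was higher. Dll1 had 2.46, 3.8 and 2.95 CPM in the combination and 45, 50.8 and 49.6 CPM in PD032, a log2 fold change of -3.99 (standard error 0.14, edgeR adjusted p = 4.75e-08). Dll3 had 1.39, 1.32 and 1.58 CPM in the combination and 22.3, 17.6 and 23.8 CPM in PD032, a log2 fold change of -3.88 (standard error 0.3, edgeR adjusted p = 4.75e-06), and Dll4 had a log2 fold change of -4.26. Delta ligands activate Notch receptors on neighbouring cells, except Dll3, which acts within the cell. The groups did not overlap for any of the 3, as for 49.8% of all genes tested. Mfng and Lfng, glycosyltransferases that tune which ligands a receptor answers, fell from 8.72 ± 1.84 to 0.453 ± 0.156 and from 8.05 ± 1.31 to 1.62 ± 0.514 CPM, and Hes6, a neurogenic member of the Hes family, fell from 127 ± 3.54 to 22.1 ± 1.56 CPM. Jag1, a ligand of the Jagged family, rose from 11.9 ± 2.04 to 43.9 ± 4.14 CPM and the receptor gene Notch4 from 1.63 ± 0.537 to 6.35 ± 1.76 CPM, while Notch1 and Notch2 fell from 101 ± 21.4 to 63.9 ± 7.33 and from 108 ± 25 to 59.9 ± 7.7 CPM. The Notch targets Hes1, Hey1 and Nrarp rose from 6.85 ± 0.465 to 21.6 ± 4.11, from 1.91 ± 0.205 to 3.64 ± 1.03 and from 0.297 ± 0.0447 to 0.764 ± 0.0716 CPM, and Hey2 fell from 1.1 ± 0.0657 to 0.536 ± 0.186 CPM. The calls of Notch1, Hey1, Hey2 and Nrarp were lost without replicate 3 of the combination (edgeR adjusted p = 0.0701, 0.106, 0.118 and 0.0538) or replicate 3 of PD032 (0.0937, 0.069, 0.0908 and 0.0542). They were also lost for Hey1 and Nrarp without replicate 1 of the combination (0.0546 and 0.055) or replicate 2 of PD032 (0.0579 and 0.0613), and for Notch1, Hey2 and Nrarp without replicate 2 of the combination (0.0769, 0.0532 and 0.0647) or replicate 1 of PD032 (0.0892, 0.0665 and 0.0795). Notch1 further lost its call with no filter on low counts (edgeR adjusted p = 0.148), and Hey2 with the DESeq2 Wald test (adjusted p = 0.0678). Over 19 Notch genes 6 were higher and 10 lower, against 16.2% and 20.4% of all genes. The 6 became 3 without replicate 1 or 3 of the combination or replicate 3 of PD032. Hedgehog genes had 0 higher and 8 lower of 11, against 16.2% and 20.4% of all genes. Under the replicate block 2 were higher, against 28.9%. The signal transducer Smo fell from 28.6 ± 3.24 to 8.65 ± 0.243 CPM, the effector and target Gli1 from 39.2 ± 1.82 to 15.6 ± 3.25 CPM, and the coreceptor genes Boc and Gas1 from 4.37 ± 0.693 to 1.1 ± 0.493 and from 5.31 ± 0.664 to 2.23 ± 0.196 CPM. Ptch1 and Hhip, which encode receptors that restrain the pathway, fell from 252 ± 10 to 174 ± 18.5 and from 28.3 ± 1.02 to 13.5 ± 3.83 CPM, and the ligand genes Shh, Ihh and Dhh had too few counts to be tested.

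**Figure D3:**
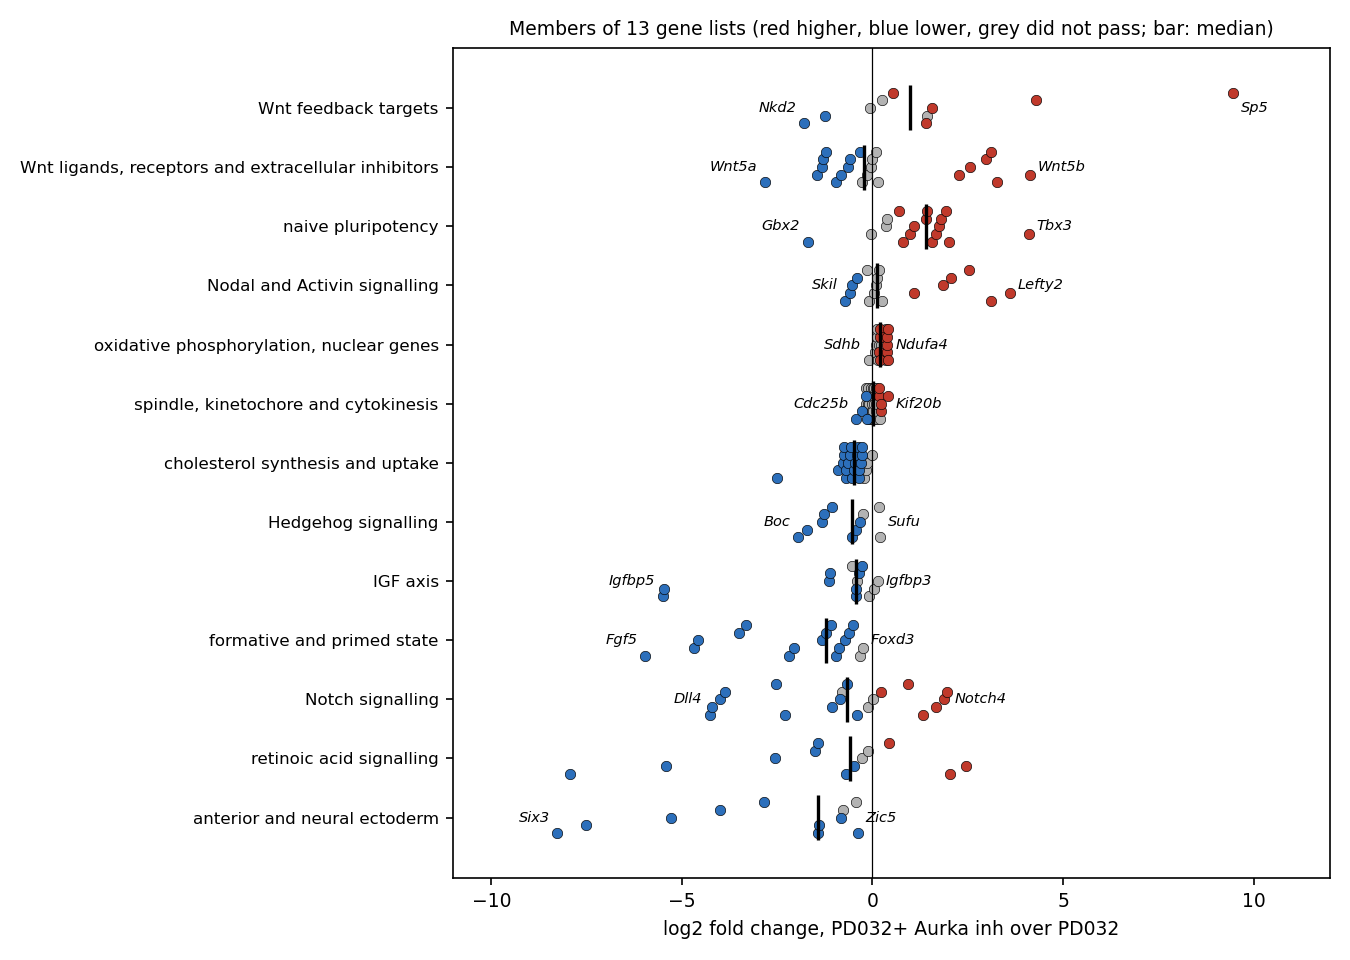
Log2 fold change of PD032+ Aurka inh over PD032 for each tested member of 13 gene lists, 1 point per gene, with the median of each list as a bar and, for most lists, the lowest and highest member named. Members of the formative, anterior and neural, and cholesterol lists lie at or left of 0, while the Wnt and Notch lists spread to both sides.

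Genes of the insulin-like growth factor axis were lower in 8 of 13 cases, against 20.4% of all genes, and higher in none. Without replicate 3 of the combination or replicate 1 or 3 of PD032, 5 were lower. Without replicate 2 of all 3 inhibitor groups 1 was higher. Igf1, a growth factor, had 0, 0.105 and 0.0415 CPM in the combination and 2.02, 2.4 and 2.52 CPM in PD032, which are 3 and 147 counts and a ratio of 49.8 (95% interval 16.7 to 244). It had 0 CPM in every library of Aurka inh, 2iLif and FGF2/Activin. Igfbp2, a second binding protein, fell from 446 ± 7.26 to 207 ± 20.8 CPM, and the receptor genes Igf1r and Insr fell from 41 ± 4.63 to 34.2 ± 2.28 and from 11.9 ± 1.57 to 8.8 ± 0.853 CPM. Both receptor calls were lost without replicate 3 of the combination (edgeR adjusted p = 0.109 and 0.112), replicate 1 of PD032 (0.15 and 0.109) or its replicate 3 (0.0788 and 0.111). Igf1r also lost its call without replicate 1 of the combination (0.114) or replicate 3 of Aurka inh (0.0514), and Insr without replicate 2 of the combination (0.0743).

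FGF ligands and receptors had 0 higher and 6 lower of 13, against 16.2% and 20.4% of all genes. Fgfr2 had 41, 28.8 and 41.2 CPM in the combination and 142, 121 and 147 CPM in PD032, a log2 fold change of -1.88 (standard error 0.13, edgeR adjusted p = 2.59e-06), and Fgfr1 fell from 164 ± 16.1 to 101 ± 4.95 CPM. Fgfr3 fell from 0.804 ± 0.236 to 0.183 ± 0.167 CPM. Of 17 tested feedback genes of ERK signalling 7 were higher and 5 lower, beside the same shares of all genes. Spry4, an inhibitor of receptor tyrosine kinase signalling, had 0.464, 0.739 and 0.748 CPM in the combination and 0.138, 0.266 and 0.0435 CPM in PD032, a log2 fold change of 2.15 (standard error 0.45, edgeR adjusted p = 0.00365), and Aurka inh alone had 17 CPM. Etv4, an ETS factor induced by FGF, had 3.99, 4.06 and 3.95 CPM in the combination and 1.38, 1.71 and 1.26 CPM in PD032, a log2 fold change of 1.47 (standard error 0.13, edgeR adjusted p = 1.45e-05), against 45 CPM in Aurka inh. The combination and PD032 did not overlap for either gene, and Aurka inh alone was higher still. Il17rd, an inhibitor of FGF signalling also called Sef, rose from 30.4 ± 2.23 to 94 ± 12.2 CPM, against 83.4 CPM in Aurka inh. Spry2, Spred1 and Etv1 rose from 31.3 ± 0.98 to 53.1 ± 2.83, from 48 ± 5 to 109 ± 6.7 and from 6.26 ± 0.92 to 18.3 ± 0.967 CPM, against 63.5, 165 and 29.5 CPM in Aurka inh. The phosphatase genes Dusp9 and Dusp5 fell from 9.54 ± 1.48 to 2.83 ± 0.592 and from 8.45 ± 1.99 to 3.41 ± 0.627 CPM, and Dusp6, the phosphatase most closely tied to ERK, did not pass, with 12, 11.7 and 11.6 CPM in the combination and 10.5, 13.8 and 11.8 CPM in PD032 (adjusted p = 0.855). Mapk3, which encodes the kinase ERK1, fell from 130.0 ± 9.91 to 84.1 ± 3.62 CPM.

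Among immediate early genes, Egr1 and Fos varied more within the groups than between them. Egr1, a zinc finger factor induced within minutes of ERK activation, had 46.3, 0.792 and 40.9 CPM in the combination and 14.7, 0.639 and 26.6 CPM in PD032, with adjusted p = 0.48. Fos had 7.34, 0.422 and 3.9 CPM in the combination and 9.98, 1.49 and 15 CPM in PD032, with adjusted p = 0.315, and 0.0102 with the replicate block. Replicate 2 was the lowest of both groups in both genes, and of Aurka inh as well, where Egr1 had 79.6, 23.6 and 61.5 CPM. Of the 16 tested members 3 were higher and 8 lower, against 16.2% and 20.4% of all genes. Fosl2, Jun and Jund, all parts of AP-1 factors, fell from 3.14 ± 0.978 to 0.654 ± 0.158, from 1.69 ± 0.649 to 0.584 ± 0.193 and from 23.3 ± 1.35 to 9.47 ± 1.76 CPM. The 3 higher members of this list are not named here. Ephrin signalling genes moved both ways, 5 higher and 5 lower of 16, against 16.2% and 20.4% of all genes. The receptor genes Epha1, Epha2 and Epha4 rose from 2.12 ± 0.0719 to 7.86 ± 1.35, from 34.9 ± 0.906 to 109 ± 9.6 and from 18.5 ± 0.997 to 68.1 ± 5.21 CPM, and Ephb1 and the ligand gene Efnb2 fell from 4.61 ± 1.87 to 0.314 ± 0.16 and from 46 ± 0.92 to 9.85 ± 0.336 CPM.

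In the Nodal pathway, which signals through Smad2 and Smad3, the ligand gene and its feedback inhibitors rose. Nodal had 95.7, 116 and 90.2 CPM in the combination and 22.7, 28.6 and 21.5 CPM in PD032, a log2 fold change of 2.05 (standard error 0.12, edgeR adjusted p = 8.05e-07). Lefty1, a secreted inhibitor of Nodal, had 25.9, 11.7 and 23.6 CPM in the combination and 3.17, 1.06 and 2.79 CPM in PD032, a log2 fold change of 3.10 (standard error 0.42, edgeR adjusted p = 0.00025), and its neighbour Lefty2 had 12.9, 6.17 and 12.4 CPM in the combination and 0.92, 0.639 and 1 CPM in PD032, a log2 fold change of 3.60 (standard error 0.32, edgeR adjusted p = 1.34e-05). Replicate 2 was the lowest in both groups for Lefty1 and Lefty2, and the groups still did not overlap. Lefty1 and Lefty2 are similar in sequence, so the split of reads between them is uncertain. Tdgf1, the Nodal coreceptor Cripto, rose from 43 ± 2.4 to 156 ± 7.02 CPM and Smad7, an intracellular inhibitor of this family, from 2.84 ± 0.39 to 16.5 ± 2.43 CPM. The pathway's Smad2 and Smad4 did not pass (adjusted p = 0.274 and 0.321, the latter 0.022 with the replicate block), and Smad3 and Foxh1 fell from 55.4 ± 0.56 to 42 ± 4.07 and from 96.2 ± 4.07 to 66.7 ± 3.48 CPM. Over 17 genes of the pathway 6 were higher and 4 lower, against 16.2% and 20.4% of all genes.

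BMP genes had 2 higher and 6 lower of 15, against 16.2% and 20.4% of all genes, and 4 higher with the replicate block, against 28.9%. Their Id targets split: Id1 and Id2, inhibitors of basic helix-loop-helix factors, fell from 8.03 ± 1.17 to 1.11 ± 0.225 and from 4.82 ± 0.0338 to 0.648 ± 0.0528 CPM, whereas Id3 rose from 28.5 ± 2.49 to 45.9 ± 3.83 CPM and Id4 from 2.42 ± 0.353 to 6.73 ± 0.939 CPM. Chrd, the secreted BMP antagonist chordin, fell from 5.4 ± 0.703 to 0.756 ± 0.0752 CPM and the ligand gene Bmp7 from 7.84 ± 3.57 to 2.11 ± 0.552 CPM. LIF and STAT3 genes had 4 higher and 7 lower of 12, beside the same shares of all genes. Socs3, a feedback inhibitor of STAT3, had 0.186, 0.369 and 0.166 CPM in the combination and 4.92, 1.49 and 6.09 CPM in PD032, a log2 fold change of -4.14 (standard error 0.57, edgeR adjusted p = 0.000275), with no overlap, against 132 CPM in 2iLif. Il6st, the signalling subunit of the LIF receptor known as gp130, went up from 105 ± 2.8 to 235 ± 14.1 CPM, and Stat3 did not pass (log2 fold change 0.083, adjusted p = 0.585).

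Of the axon guidance genes other than netrin 1, Nrp2, a receptor of semaphorins and vascular growth factors, had 83.1, 44.4 and 78.1 CPM in the combination and 7.17, 4.85 and 6.79 CPM in PD032, a log2 fold change of 3.44 (standard error 0.27, edgeR adjusted p = 6.32e-06). Slit2, a secreted repellent, rose from 1.48 ± 0.21 to 7.27 ± 1.46 CPM. The netrin receptor gene Neo1 did not pass (log2 fold change 0.049), and Dcc had too few counts to be tested. Over the list 3 were higher and 6 lower of 16, against 16.2% and 20.4% of all genes. With the replicate block 5 were higher, against 28.9%, and 3 were lower without replicate 1 of PD032. Primitive streak and mesoderm genes had 4 higher and 2 lower of 8, against 16.2% and 20.4% of all genes. The 2 lower became 1 without replicate 1 of the combination and 0 without its replicate 3 or without replicate 2 or 3 of PD032. T, the brachyury factor of the streak, had 0.929, 0.792 and 1.21 CPM in the combination and 0.092, 0.106 and 0.174 CPM in PD032, a log2 fold change of 2.91 (standard error 0.37, edgeR adjusted p = 0.000173). It stayed below the 8.18 CPM of Aurka inh alone, and 9 of the 17 listed genes, among them Mixl1, Gsc and Mesp1, had too few counts to be tested. Sp8, a zinc finger factor, rose from 1.38 ± 0.168 to 6.98 ± 1.32 CPM.

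The transcript of the inhibited kinase did not pass. Aurka had 182, 185 and 178 CPM in the combination and 162, 173 and 157 CPM in PD032, a log2 fold change of 0.15 (standard error 0.056, edgeR adjusted p = 0.0627), and an adjusted p of 0.00225 with the replicate block. By a small margin every library of the combination lay above every PD032 library, which held for 24.2% of all genes tested. The activator gene Bora rose from 59 ± 2.78 to 80.8 ± 4.62 CPM, and Tpx2 did not pass, with 288, 290.1 and 299 CPM in the combination and 303, 319 and 311 CPM in PD032 (adjusted p = 0.177, and 0.018 with the block). Plk1, the kinase that Aurora A activates at mitotic entry, did not pass either (log2 fold change -0.086, adjusted p = 0.179, and 0.0314 with the block). Aurkb and its partner gene Incenp had log2 fold changes of -0.024 and -0.012 and did not pass. Ajuba, a LIM protein that also activates Aurora A, fell from 284 ± 16.4 to 162 ± 3.94 CPM, and Pak1, a kinase that does so at the centrosome, rose from 45.9 ± 5.52 to 80.1 ± 4.96 CPM. The list of 15 tested genes held 3 higher and 1 lower, against 16.2% and 20.4% of all genes. With the replicate block it held 6 and 5, against 28.9% and 28.8%. The 1 lower became 2 without replicate 2 of PD032. Log2 fold changes over the list ran from -0.814 to 1.48, and the member at 1.48 is not named here.

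Spindle, kinetochore and cytokinesis genes had 5 higher and 4 lower of 39, below the 16.2% and 20.4% of all genes, with changes from -0.43 to 0.40 on the log2 scale. With the replicate block 12 and 12 passed, against 28.9% and 28.8% of all genes. Leaving out any 1 library of the combination, or replicate 1 or 3 of PD032, left 2 or 3 higher and 2 lower, and 3 were higher without replicate 3 of Aurka inh. The cyclin gene Ccnb1 and the topoisomerase gene Top2a had log2 fold changes of -0.0097 and -0.019 and did not pass. Kif20b, a kinesin of cytokinesis, rose from 204 ± 5.26 to 269 ± 7.04 CPM. In DNA replication 7 genes of 30 were higher and 2 lower, against 16.2% and 20.4% of all genes. The counts were 18 and 6 with the replicate block, against 28.9% and 28.8% of all genes, and 12 were higher without replicate 2 of all 3 groups, against 20.1%. The 7 became 3 without replicate 3 of the combination or replicate 1 or 3 of PD032. Rfc5, a subunit of the clamp loader, rose from 185 ± 2.51 to 243 ± 1.48 CPM, and the helicase genes Mcm2, Mcm5 and Mcm6 did not pass without the block, at -0.069, 0.11 and 0.10.

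Of 20 regulators of the G1 phase 7 were higher and 4 lower, against 16.2% and 20.4% of all genes. Cdk6, a kinase that pairs with D cyclins, had 89.5, 90.2 and 83.3 CPM in the combination and 18, 23.4 and 17.5 CPM in PD032, a log2 fold change of 2.16 (standard error 0.11, edgeR adjusted p = 3.17e-07). Cdkn1a, which encodes the inhibitor p21, had 141, 154 and 132 CPM in the combination and 63.7, 60.9 and 62.4 CPM in PD032, a log2 fold change of 1.19 (standard error 0.069, edgeR adjusted p = 8.01e-07). The groups lay well apart in both genes. Ccnd2 and Ccne1, which encode cyclins of G1, fell from 14.5 ± 3.85 to 5.34 ± 0.65 and from 160.0 ± 5.7 to 107 ± 10.5 CPM, and Cdkn1b, which encodes the inhibitor p27, did not pass, at 111, 99.5 and 104 CPM in the combination and 110.3, 99.4 and 104 CPM in PD032 (adjusted p = 0.982). Of p53 and its targets, Cdkn1a among them, 2 were higher and 10 lower of 26, beside the same shares. With the replicate block 4 were higher, against 28.9% of all genes. Mdm2, the p53 ligase, fell from 164 ± 7.2 to 139 ± 0.618 CPM, Btg2, which restrains proliferation, from 61.9 ± 7.09 to 29.6 ± 1.65 CPM, and Trp73, a relative of p53, from 44.9 ± 2.04 to 16.3 ± 0.739 CPM, while Trp53 rose from 354 ± 10.7 to 451 ± 26.2 CPM. Genes of the BCL2 family and the caspases had 1 higher and 9 lower of 20, against 16.2% and 20.4% of all genes. With the replicate block 4 were higher, against 28.9%. The pro-apoptotic Bmf fell from 77.3 ± 4.71 to 25 ± 4.51 CPM, Bcl2l11, which encodes Bim, from 51.4 ± 7.03 to 21.1 ± 2.97 CPM and Hrk from 29.6 ± 2.14 to 11.9 ± 0.595 CPM. Of the anti-apoptotic genes Mcl1 did not pass (adjusted p = 0.213, and 0.031 with the block). Bcl2l1, also anti-apoptotic, fell, at a log2 fold change of -0.574 (edgeR adjusted p = 0.000155). Bid was the gene that rose, from 45.9 ± 2.71 to 65.6 ± 1.6 CPM, and 2 were higher without replicate 2 of the combination, replicate 1 of PD032, or replicate 1 or 2 of Aurka inh. Myc rose from 3.62 ± 0.954 to 6.05 ± 1.02 CPM and Mxd4, which competes with Myc for its partner Max, fell from 13.2 ± 2.04 to 3.52 ± 0.395 CPM.

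Podxl and Cgn, genes of the apical surface and of cell junctions, were lower. Podxl, the podocalyxin that coats the lumen, had 36.1, 18.8 and 33.9 CPM in the combination and 403, 325 and 398 CPM in PD032, a log2 fold change of -3.66 (standard error 0.27, edgeR adjusted p = 4.17e-06). Cgn, the tight junction protein cingulin, had 5.57, 4.01 and 4.45 CPM in the combination and 22.6, 16.2 and 20.6 CPM in PD032, a log2 fold change of -2.08 (standard error 0.23, edgeR adjusted p = 5.72e-05). Replicate 2 of PD032 was the lowest of its group in both genes and was still far above the combination. Aurka inh alone lay between, at 130.2 CPM for Podxl and 14.9 for Cgn. The lumen list held 1 higher and 4 lower of 17, against 16.2% and 20.4% of all genes. It held 5 and 10 with the replicate block, against 28.9% and 28.8%, and 7 lower without replicate 2 of all 3 groups, against 24.9%. Its 1 higher member, Rab11fip5, was lost without any 1 library of the combination or replicate 1 or 3 of PD032. The cytoskeletal linker genes Rdx and Msn and the GTPase gene Cdc42 did not pass without the block (adjusted p = 0.186, 0.349 and 0.111, and 0.00621, 0.0285 and 0.00582 with it). Polarity genes of the Par, Crumbs and Scribble complexes had 2 higher and 7 lower of 22, against 16.2% and 20.4% of all genes, or 11 lower with the block, against 28.8%. Crb3, the epithelial Crumbs protein, fell from 9.63 ± 0.798 to 4.52 ± 0.178 CPM, Pard6b from 38.6 ± 1.83 to 23.1 ± 1.57 CPM and Patj from 21.2 ± 0.926 to 11.4 ± 1.77 CPM. Llgl2, which marks the basolateral side, rose from 40.8 ± 3.66 to 73.4 ± 7.47 CPM.

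Claudin and tight junction genes had 1 higher and 7 lower of 16, against 16.2% and 20.4% of all genes. Cldn6 and Cldn7 fell from 40.5 ± 3.73 to 15.4 ± 2.23 and from 6.67 ± 0.0596 to 2.06 ± 0.869 CPM, Ocln, which encodes occludin, from 4.04 ± 0.58 to 1.33 ± 0.345 CPM, and Jam2, a junctional adhesion molecule, rose from 21.2 ± 3.94 to 88.2 ± 18.4 CPM. The 1 higher became 5 with the replicate block, 3 without replicate 2 of the combination and 2 without replicate 3 of PD032 or replicate 1 or 2 of Aurka inh. Cadherin and desmosome genes had 2 higher and 11 lower of 21, beside the same shares of all genes. Cdh1, which encodes E-cadherin, did not pass, with 772, 828 and 762 CPM in the combination and 764, 738 and 737 CPM in PD032 (adjusted p = 0.282). Cdh3, which encodes P-cadherin, had 22.8, 24.9 and 20.7 CPM in the combination and 93.4, 90.8 and 89 CPM in PD032, a log2 fold change of -2 (standard error 0.091, edgeR adjusted p = 1.99e-07), and the protocadherin Pcdh1 had 0.882, 0.792 and 1.04 CPM in the combination and 26.4, 18.6 and 29.2 CPM in PD032. The groups did not overlap for Cdh3 or Pcdh1, as for 49.8% of all genes tested, and the combination was the lower of the groups. Keratin and lamin genes had 1 higher and 8 lower of 16, against 16.2% and 20.4% of all genes. With the block 3 were higher, against 28.9%, and 2 were higher without replicate 2 of PD032. The simple epithelial keratin gene Krt18 fell from 10.5 ± 0.839 to 1.24 ± 0.214 CPM, its partner Krt8 from 4.54 ± 1.06 to 1.73 ± 1.13 CPM (edgeR adjusted p = 0.0108, and 0.0537 without replicate 3 of the combination), and Des, the muscle filament desmin, from 7.4 ± 0.399 to 0.841 ± 0.206 CPM.

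Basement membrane genes had 4 higher and 11 lower of 22, against 16.2% and 20.4% of all genes, with a median of -0.59. The collagen genes Col4a1 and Col4a2 fell from 12.5 ± 0.83 to 3.3 ± 0.0691 and from 4.38 ± 0.82 to 1.7 ± 0.392 CPM and Hspg2, which encodes perlecan, fell from 164 ± 36.5 to 70.5 ± 11.1 CPM. Fn1, which encodes fibronectin, had 1530, 1222 and 1329 CPM in the combination and 871, 646 and 799.8 CPM in PD032, a log2 fold change of 0.82 (standard error 0.13, edgeR adjusted p = 0.000564), and Nid1, a nidogen that links laminin to collagen, rose from 83.5 ± 10.2 to 162 ± 30.9 CPM. Lamc1, a chain of the main embryonic laminin, did not pass (log2 fold change 0.0056). The summed level of fibroblast markers was lower over the same libraries, 5.28 to 7.27 CPM in the combination and 10.7 to 14.5 CPM in PD032, and its part in these values was not tested. Beside the same shares of all genes, integrin genes had 4 higher and 6 lower of 16: Itga3 and Itgb3 fell from 11.2 ± 0.746 to 3.19 ± 0.734 and from 2.9 ± 0.203 to 1.13 ± 0.297 CPM, and Itga1 and Itga9 rose from 1.4 ± 0.292 to 5.27 ± 2.26 and from 3.52 ± 0.331 to 8.1 ± 1.63 CPM. In the focal adhesion and actin list 5 were higher and 12 lower of 23, against 16.2% and 20.4% of all genes. Among them the filamin gene Flnc fell from 57.6 ± 7.73 to 11.2 ± 2.01 CPM, and the cytoplasmic actin gene Actg1 rose from 77.1 ± 8.48 to 132 ± 9.16 CPM. YAP and Hippo genes had 5 higher and 6 lower of 17, against 16.2% and 20.4% of all genes. Tead4, a partner of YAP, rose from 10 ± 0.637 to 36.7 ± 3.1 CPM and Tead3 fell from 4.49 ± 0.907 to 1.84 ± 0.183 CPM, and of the YAP targets Ccn1 fell from 7.82 ± 3.19 to 3.5 ± 0.774 CPM and Ccn2 rose from 8.43 ± 1.72 to 14.8 ± 0.606 CPM. Tubulin isotypes and regulators had 3 higher and 5 lower of 18, near the 16.2% and 20.4% of all genes, or 8 higher with the block, against 28.9%. The neuronal isotype gene Tubb4a fell from 6.26 ± 1.85 to 0.404 ± 0.174 CPM, and Stmn2 and Stmn3, which bind tubulin, rose from 104 ± 10.1 to 255 ± 28.1 and from 3.1 ± 0.221 to 9.32 ± 0.409 CPM.

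Genes of cholesterol synthesis and uptake were lower in 20 of 24 cases, against 20.4% of all genes, and higher in none, against 16.2%. Their median log2 fold change was -0.47. Hmgcs1, an enzyme of the early part of the pathway, had 518, 492 and 514 CPM in the combination and 888, 846 and 892 CPM in PD032, a log2 fold change of -0.78 (standard error 0.058, edgeR adjusted p = 3.83e-06). Every library of the combination lay below every PD032 library, which held for 25.6% of all genes tested. Enzymes along the pathway fell as well, with log2 fold changes of -0.47 for Mvk, -0.90 for Pmvk, -0.75 for Mvd, -0.71 for Fdps, -0.54 for Fdft1, -0.70 for Lss and -0.59 for Dhcr7. The call of Lss was lost with no filter on low counts (edgeR adjusted p = 0.08). Srebf2, the transcription factor that drives these genes, fell from 546 ± 44.8 to 391 ± 40.9 CPM and Insig1, which holds it back, from 207 ± 9.45 to 155 ± 8.27 CPM. Acat2, a thiolase that supplies the pathway, did not pass (adjusted p = 0.0725, and 0.0041 with the replicate block). For Hmgcs1 Aurka inh alone had 519.7 CPM and did not pass against the combination (edgeR adjusted p = 0.728).

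The Hmgcs1 promoter is printed because the levels of this gene are given above and its window holds the letters of a sterol response element. It is the RefSeq window chr13:119690101-119690400 on the plus strand of GRCm38.p6, and capitals mark TCACNCCAC, 137 bases before the start.
Hmgcs1 promoter: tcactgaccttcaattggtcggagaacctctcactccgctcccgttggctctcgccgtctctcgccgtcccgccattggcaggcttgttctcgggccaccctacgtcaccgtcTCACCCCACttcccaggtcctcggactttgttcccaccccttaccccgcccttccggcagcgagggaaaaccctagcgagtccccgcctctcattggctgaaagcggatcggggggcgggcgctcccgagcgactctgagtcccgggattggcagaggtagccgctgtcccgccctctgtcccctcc
On both strands this motif occurs in 1.24% of 32851 promoter windows, and among the 16 cholesterol genes with a window it occurs in that of Hmgcs1. No match says only that these letters are not in a window. A link between this motif and the fall of the list was not tested.

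Fatty acid genes had 3 higher and 6 lower of 17, against 16.2% and 20.4% of all genes. There were 10 lower with the block, against 28.8%, or without replicate 2 of all 3 groups, against 24.9%, and 1 higher without replicate 3 of either group. Acsl4, which activates long polyunsaturated fatty acids, fell from 202 ± 10.9 to 112 ± 5.35 CPM, Fads2, a desaturase, from 226 ± 21.7 to 135 ± 16 CPM, and the synthase gene Fasn did not pass (adjusted p = 0.419, and 0.00013 with the block). Glycolysis genes had 7 higher and 6 lower of 26, against 16.2% and 20.4% of all genes, so the share lower was near that of all genes. There were 14 higher with the block, against 28.9%, and 12 without replicate 2 of all 3 groups, against 20.1%. Slc16a3, which exports lactate, had 98.2, 70.9 and 85.5 CPM in the combination and 338, 347 and 317 CPM in PD032, a log2 fold change of -1.98 (standard error 0.14, edgeR adjusted p = 2.85e-06), and Slc2a1, the glucose transporter Glut1, had 365, 336 and 354 CPM in the combination and 898, 703 and 875 CPM in PD032, a log2 fold change of -1.23 (standard error 0.1, edgeR adjusted p = 8.24e-06). Neither gene overlapped between groups, and both were lower in the combination, whereas Slc2a3, which encodes another glucose transporter, rose from 472 ± 74.4 to 662 ± 66.1 CPM and the pyruvate dehydrogenase kinase gene Pdk1 from 205 ± 7.47 to 329 ± 5.78 CPM. Hypoxia genes had 3 higher and 6 lower of 15, against 16.2% and 20.4% of all genes: Egln3, an oxygen-sensing hydroxylase, fell from 18.2 ± 3.5 to 3.6 ± 0.504 CPM, and Kdm3a, a histone demethylase, rose from 143 ± 10.7 to 228 ± 12.7 CPM.

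Nuclear genes of oxidative phosphorylation had 10 higher and 0 lower of 21, against 16.2% and 20.4% of all genes, with a median log2 fold change of 0.21. With the replicate block 18 were higher and 1 lower, against 28.9% and 28.8%, and 5 were higher without replicate 2 of the combination or replicate 1 or 3 of PD032. Sdha, a subunit of succinate dehydrogenase, had 368, 381 and 381 CPM in the combination and 276, 292 and 288 CPM in PD032, a log2 fold change of 0.40 (standard error 0.047, edgeR adjusted p = 9.53e-05), and Uqcrc1, a core subunit of complex III, rose from 264 ± 7.76 to 342 ± 5.66 CPM. Each library of the combination exceeded each PD032 library for both, as for 24.2% of all genes tested. No member reached a log2 fold change above 0.41. The 7 tested protein-coding genes on the mitochondrial genome list had adjusted p of 0.302 to 0.749, at log2 fold changes of 0.073 to 0.17. Of all 11 tested genes of that genome 1 passed, the ribosomal RNA gene mt-Rnr1, which is not on the list and was picked after its values were seen, at a log2 fold change of -0.89 (edgeR adjusted p = 3.53e-06).

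Genes of the ATF4 amino acid response had 2 higher and 6 lower of 24, against 16.2% and 20.4% of all genes, or 6 and 10 with the block, against 28.9% and 28.8%, and 1 higher without replicate 1 or 3 of the combination or any 1 library of PD032. Asns, asparagine synthetase, rose from 840.0 ± 14.2 to 1360 ± 65.2 CPM. Genes of the unfolded protein and heat shock responses had 4 higher and 4 lower of 23, near the shares of all genes, or 9 and 8 with the block, and 2 lower without replicate 3 of any 1 of the inhibitor groups. Hspb1, a small heat shock protein, rose from 81.8 ± 13.2 to 159 ± 24.2 CPM and Xbp1, a factor of the unfolded protein response, fell from 123 ± 4.21 to 82 ± 3.18 CPM. NRF2 genes had 3 higher and 2 lower of 18, against 16.2% and 20.4% of all genes, or 7 and 6 with the block, against 28.9% and 28.8%. They had 0 or 1 higher without replicate 1 or 2 of the combination or replicate 1 or 3 of PD032. Cyp1a1, an oxidase induced through the aryl hydrocarbon receptor, did not pass between the groups, with 38.5, 95.8 and 35.1 CPM in the combination and 30.3, 58.8 and 32.8 CPM in PD032 (adjusted p = 0.413, and 0.0316 with the block). Replicate 2 had the most in each group, and both groups that received PD032 lay above the 1.69, 4.76 and 1.04 CPM of Aurka inh alone (edgeR adjusted p = 0.00027 for the combination against it).

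Interferon and MHC class I genes had 3 higher and 9 lower of 16, against 16.2% and 20.4% of all genes. Tap1, which pumps peptides for presentation, fell from 4.88 ± 0.852 to 1.02 ± 0.202 CPM and H2-K1, a class I heavy chain, from 12.6 ± 0.41 to 4.74 ± 0.491 CPM, while Irf1 rose from 18.3 ± 2.86 to 34.8 ± 4.04 CPM. Class I genes are near copies of each other, so the count of H2-K1 is uncertain. Imprinted genes had 2 higher and 9 lower of 17, beside the same shares, or 4 higher with the block, against 28.9% of all genes. Peg3, a zinc finger gene expressed from the paternal copy, had 102, 70.6 and 96.8 CPM in the combination and 356, 265 and 371 CPM in PD032, a log2 fold change of -1.88 (standard error 0.2, edgeR adjusted p = 4.45e-05), and Plagl1, another paternally expressed zinc finger gene, had 11.5, 19.05 and 11.3 CPM in the combination and 0.598, 1.17 and 0.74 CPM in PD032, a log2 fold change of 4.07 (standard error 0.36, edgeR adjusted p = 1.38e-05). The groups did not overlap in either gene, as for 49.8% of all genes tested, and the genes moved in opposite directions. The noncoding genes Meg3, Rian and Mirg, neighbours in 1 imprinted cluster, fell from 462 ± 57.2 to 315 ± 22.8, from 769 ± 72.1 to 500.0 ± 56.6 and from 56.7 ± 2.48 to 36.1 ± 0.822 CPM.

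Among genes of other cells and states, Kit, a receptor tyrosine kinase of germ cells and stem cells, had 74.2, 84.1 and 68.8 CPM in the combination and 17.2, 16.6 and 16.3 CPM in PD032, a log2 fold change of 2.18 (standard error 0.13, edgeR adjusted p = 8.86e-07). The germline list held 1 higher and 7 lower of 16, against 16.2% and 20.4% of all genes, or 4 and 11 with the block, against 28.9% and 28.8%. It held 2 higher without replicate 2 of the combination or of PD032. Tfap2c, a factor shared by trophoblast, germline and naive cells, rose from 17.1 ± 1.99 to 46.4 ± 12.4 CPM, and Ascl2, a trophoblast factor, fell from 11.7 ± 2.22 to 5.51 ± 1.12 CPM. Of 6 tested trophoblast genes 2 were higher and 2 lower, against 16.2% and 20.4% of all genes. The summed level of 5 markers was 33.1 to 55.2 CPM in the combination and 15.4 to 19 CPM in PD032, and Tpbpa was at 0 in both groups. Tfap2c made up most of that sum, so it is not a measure of trophoblast alone. Of the other markers Cdx2 rose, at a log2 fold change of 3.85, and Gata3 fell, at -2.25 (edgeR adjusted p = 0.0104 and 0.0056). Both were weakly expressed, with means under 1 CPM in the combination and in PD032. With a filter of at least 1 CPM in 3 libraries, 1 trophoblast gene was higher and 1 lower. Of 6 primitive endoderm genes 0 were higher and 3 lower, or 1 higher with the block or without replicate 2 of Aurka inh. Fibroblast genes had 0 higher and 3 lower of 4, and both lists stand beside the same shares of all genes. Of 11 genes of the 2-cell-like state only Eif4e3 could be tested, and it fell from 1.14 ± 0.394 to 0.189 ± 0.124 CPM. The part of these cells in the results above was not tested.

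**Figure D4:**
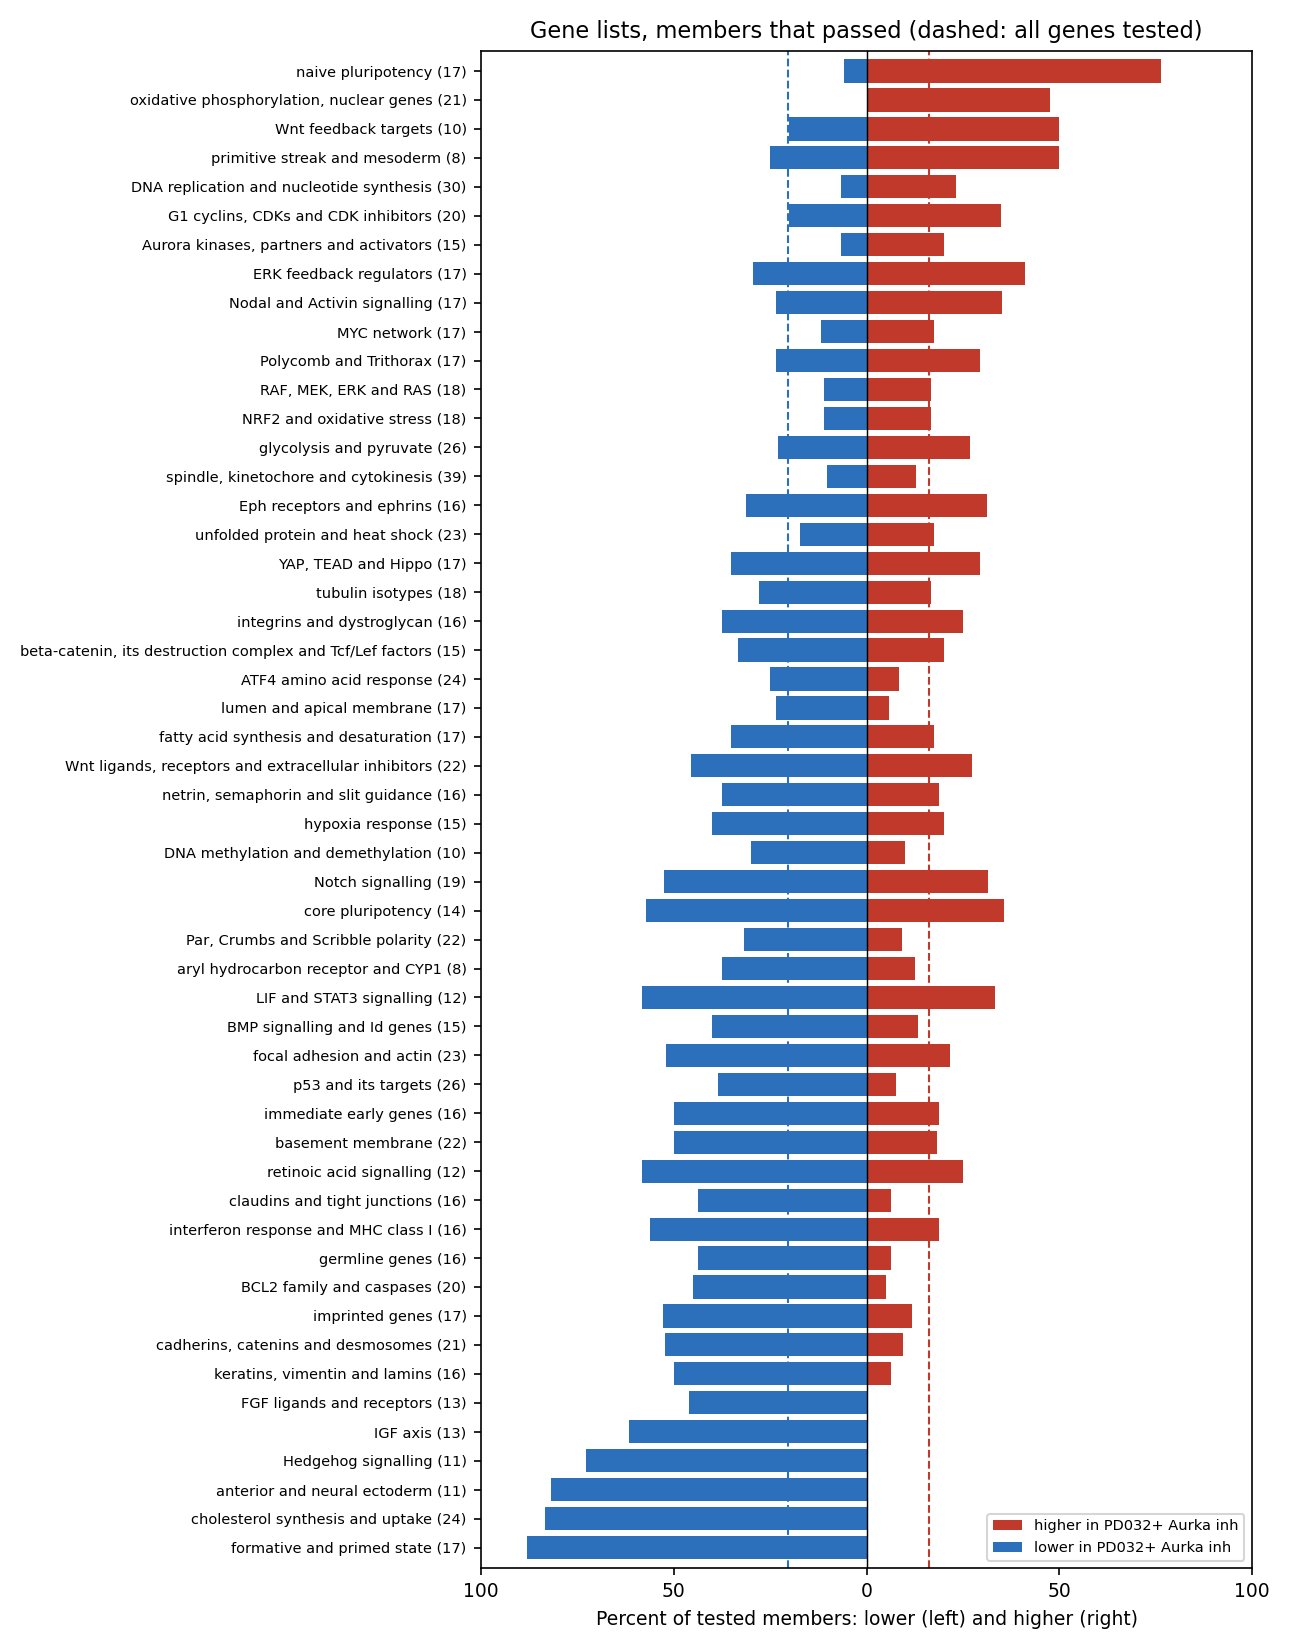
Percent of the tested members of each gene list that were lower (blue, left) or higher (red, right) in PD032+ Aurka inh than in PD032, for the 52 lists with at least 8 tested members, whose number follows each name. Dashed lines mark the 16.2% higher and 20.4% lower of all genes tested, and lists are ordered from naive pluripotency at the top to the formative and primed state at the bottom.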

How the data were processed

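RNA was measured by poly(A) sequencing in 15 libraries, 3 in each of 5 groups named by the sample titles. The authors deposited a table of whole-number counts per gene and a table of normalized values on a log2 scale; per the submitters' processing notes STAR, mm10 and DESeq2 were used, and no source used here gives tool versions, the counter, its strand setting or the annotation. The deposited counts were tested with edgeR 4.0.16 (R 4.3.3) by its quasi-likelihood test, after filterByExpr with a minimum count of 10, with TMM factors over all 15 libraries, in a fit of the 9 inhibitor libraries with group as the only term. Adjusted p is Benjamini-Hochberg over all 14871 genes tested, with a threshold of 0.05, and fitted log2 fold changes use edgeR's prior count of 0.125. The other groups were used for levels only, and the comparisons with Aurka inh share libraries with the main one.

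Gene names came from GENCODE M21, which held 49326 of 49585 identifiers. Named genes were the 10 highest and 10 lowest by fold change among called genes at a mean of at least 10 CPM. These were taken only from genes whose groups did not overlap. Each gene list gave up to 5 called members, up to 2 against its direction and up to 3 that did not pass. A fixed set of regulators was added, with genes under 0.5 CPM in one group and at least 10 CPM in the other. Further list members are given by their values where a list is described. Some members are counted in their lists but not reported here by name. The members and lists were chosen with earlier results of these data known. The fit was tested on simulated data that, unlike these libraries, held no replicate effect. It recovered 51% of genes changed 1.5-fold, 75% of those changed 2-fold and 98% of those changed 4-fold. Of 14384 unchanged genes it called 5. A gene that did not pass may thus still differ.

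Same-numbered libraries deviated together from their group means, with r of 0.307, 0.47 and 0.195 for the combination and PD032 and above 0.1 in every pair of inhibitor groups, so replicate number was also fitted as a block. Replicates 1 and 3 also deviated together across numbers, at r of 0.209 for combination 1 with PD032 3 and 0.148 for combination 3 with PD032 1. The numbers thus set apart mainly replicate 2. Ratios of genes with 0 to 3 counts in a group use the summed counts, a limit of 3 counts and a 95% interval, which cover counting error only. Alternatives were DESeq2 size factors, library size alone, no filter, a filter of at least 1 CPM in 3 libraries, the DESeq2 1.42.0 Wald test, the 6 libraries alone, all 15 libraries, the block, the deposited log2 table with limma 3.58.1, and leaving out each inhibitor library. Leaving out replicate 2 of all 3 inhibitor groups was chosen after seeing the data.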

Additional observations from a re-analysis of the deposited data

How the results depend on the processing

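With the replicate block the number of genes higher in the combination was 4292 in the fit of 9 libraries and 4338 in the 6 libraries alone, against 2412 without it, and 4277 and 4280 were lower, against 3031. Beside the named genes and list counts given with a blocked value in the report, the replicate block turned no direction and ended no call of the 468 named genes. Of 484 other tested list members it turned 0 and ended the calls of 2, neither of them named in the report. Leaving out 1 library at a time gave 1743 to 2612 higher and 2408 to 3298 lower genes, with the fewest without replicate 3 of PD032, and leaving out replicate 2 of all 3 groups gave 3016 and 3746. In these runs a group left with 2 libraries took its spread from all groups fitted. Library size alone gave 1910 higher and 3388 lower genes and moved the median of all genes by -0.0456 on the log2 scale. The other alternatives gave 2161 to 3105 higher and 2781 to 3578 lower genes. Between 74.8% and 99.9% of the genes called were called again under each alternative, and 0 took the opposite sign. Over 468 named genes and 20 alternatives, 8880 results stayed on their side of the threshold, 131 from 31 genes lost the call, 329 from 101 genes gained one and 0 reversed.

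Genes below the minimum count were not tested, so weakly expressed lineage genes are not covered. The DESeq2 Wald test called 2418 genes higher and 2995 lower, and the deposited log2 table with limma 2381 and 3014.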

Other observations

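Several genes separated replicate 2 from replicates 1 and 3 in every inhibitor group. Fosb, a subunit of AP-1 factors, had 2.74, 0.0528 and 1.41 CPM in the combination and 5.7, 0.426 and 8.92 CPM in PD032. Dazl, an RNA-binding protein of germ cells, had 11.6, 29.7 and 13 CPM in the combination and 7.59, 19.6 and 8.49 CPM in PD032, so replicate 2 was the lowest of each group for Fosb and the highest for Dazl. Gene classes differed in how many were called: 39.6% of 13028 protein-coding genes, 20.2% of 1015 long noncoding or unclassified genes, of which 124 were higher and 81 lower, and 9.14% of 711 pseudogenes, whose reads can also match their parent genes. No explanation of these values was tested.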
